A study of Mus musculus with 2 samples.

Results

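Nonclassical ACE-positive monocytes were described in the leukocytes of Lewis lung carcinoma (LLC) tumors. They were chosen by a gate on UMIs, the distinct RNA molecules counted per gene and cell. A member had at least 4 UMIs summed over Ace, Treml4, Ear2 and Adgre4, a sum under 10 over C1qa, C1qb and C1qc, at most 1 UMI of Cd3d, Cd3e and Cd3g, and at most 10% of its UMIs from mitochondrial genes. The gate held 617 of 5149 cells that met the mitochondrial limit. Because these values chose the cells, the levels of those genes are given as a description, with no test.

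LLC is a mouse lung carcinoma line that grows in C57/BL6 mice, the strain of both libraries here. The tumors were taken on day 14 after subcutaneous implantation. CD45+ cells, that is all leukocytes, were sorted from mice aged 10 weeks and loaded on 1 droplet library per genotype. Control mice carried a loxP-flanked miR-21 (miR-21fl/fl). LysMCre;miR-21fl/fl mice also carried Cre recombinase in the lysozyme M gene Lyz2, so both groups shared the floxed allele, and the deletion was limited to cells that had switched that gene on, mainly monocytes, macrophages and granulocytes. Each library pooled 3 mice. The titles wt and cko, for conditional knockout, defined the groups, but the source text of each sample names the other genotype. One protocol text also names a macrophage sort where the design text names CD45+ cells. Each library is therefore called by its label, and every direction between them follows the titles. With 1 library per genotype there was no test between genotypes and no p-value, and all intervals are exact 95% intervals that cover counting error only. The libraries shared 5 cell barcodes, of which 0 were among the gated cells.

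Blood monocytes of the mouse fall into a classical, Ly6C-high class that enters inflamed tissue and a nonclassical, Ly6C-low class that crawls along the inner wall of vessels and clears debris from it. Nonclassical cells arise from classical ones under the transcription factors NR4A1, C/EBPβ and KLF2, and they carry the fractalkine receptor CX3CR1, the integrin LFA-1 and the Fc receptor CD16-2, encoded by Fcgr4. The gate genes belong to this class: Ace encodes the peptidase that makes angiotensin II, Treml4 a receptor of the TREM family, Ear2 a ribonuclease of the eosinophil-associated family, and Adgre4 an adhesion G-protein-coupled receptor, also known as FIRE.

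The promoters of the 4 gate genes and of Fcgr4 are shown because these genes name the class or chose its cells. Each runs from 250 bases before to 50 bases after a RefSeq start site of GRCm38.p6, on the strand of the gene, and capitals mark the 8 letters GAGGAAGT of a PU.1 motif or their reverse complement. The windows are chr11:105967698-105967997 (+) for the upstream of the 2 Ace starts in the table, chr17:48264045-48264344 (+) for Treml4, chr14:44102404-44102703 (+) for Ear2, chr17:55749734-55750033 (+) for Adgre4 and chr1:171018676-171018975 (+) for Fcgr4.
Ace: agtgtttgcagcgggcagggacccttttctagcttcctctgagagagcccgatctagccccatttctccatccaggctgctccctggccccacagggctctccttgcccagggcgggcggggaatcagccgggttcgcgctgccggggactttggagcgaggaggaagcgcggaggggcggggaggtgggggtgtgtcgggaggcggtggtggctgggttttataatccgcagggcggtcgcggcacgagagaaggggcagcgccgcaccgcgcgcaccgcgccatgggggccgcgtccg
Treml4: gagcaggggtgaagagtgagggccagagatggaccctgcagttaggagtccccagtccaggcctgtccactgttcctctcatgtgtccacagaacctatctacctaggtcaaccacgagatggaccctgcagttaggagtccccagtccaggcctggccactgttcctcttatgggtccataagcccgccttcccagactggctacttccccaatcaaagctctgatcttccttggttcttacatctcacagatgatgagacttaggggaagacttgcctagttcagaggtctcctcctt
Ear2: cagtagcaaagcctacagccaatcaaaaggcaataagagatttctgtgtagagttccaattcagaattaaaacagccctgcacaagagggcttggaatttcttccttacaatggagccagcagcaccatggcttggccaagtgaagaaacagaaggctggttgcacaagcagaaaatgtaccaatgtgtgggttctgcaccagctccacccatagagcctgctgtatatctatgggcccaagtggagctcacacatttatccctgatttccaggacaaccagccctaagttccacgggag
Adgre4: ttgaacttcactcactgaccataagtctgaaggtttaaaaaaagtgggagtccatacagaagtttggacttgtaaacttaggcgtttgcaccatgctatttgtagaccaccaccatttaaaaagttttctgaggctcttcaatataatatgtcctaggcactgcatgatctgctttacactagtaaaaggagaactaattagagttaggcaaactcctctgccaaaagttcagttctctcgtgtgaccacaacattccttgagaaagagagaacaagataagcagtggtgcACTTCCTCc
Fcgr4: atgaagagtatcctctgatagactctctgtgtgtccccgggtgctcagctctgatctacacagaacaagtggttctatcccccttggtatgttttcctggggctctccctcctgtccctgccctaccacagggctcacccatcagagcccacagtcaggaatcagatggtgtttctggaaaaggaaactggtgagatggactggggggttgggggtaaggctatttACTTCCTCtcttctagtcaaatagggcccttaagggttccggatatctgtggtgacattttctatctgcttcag
Of the 22 gate and program genes, 19 were matched, with 21 promoters. Read on both strands, the PU.1 letters occurred in the promoters of Adgre4, just after the start site, and of Fcgr4, just before it, and in 3.20% of 32817 promoters of this length. The NR4A letters AAAGGTCA occurred in none of the 21 and in 1.51% of all. The C/EBP letters TTGCGCAA occurred in none and in 0.183% of all, the KLF letters GGGTGTGG in Pglyrp1 and in 3.56% of all, and the ETS letters CCGGAAGT, which end in the same GGAAGT as the PU.1 letters, in Pou2f2 and in 3.89% of all. A match describes letters in a window and no binding was measured.

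The library labelled wt held 310 gated cells of 2445 (12.7%, 11.4 to 14.1%) and the library labelled cko 307 of 2704 (11.4%, 10.2 to 12.6%). The ratio of the shares, cko over wt, was 0.895 with an interval of 0.762 to 1.05, so no difference in abundance was detectable by counting. The gated cells were shallower than the rest, with medians of 7028 and 6550 UMIs against 8373 and 8274 over all cells, and with 2174 and 2121 genes each. Their UMIs ranged from 3202 to 19871 in the library labelled wt and from 3338 to 19951 in that labelled cko, and the sums behind the levels below were 2277449 and 2187422 UMIs.

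Most members carried several of the gate genes. In the library labelled wt, 199 of 310 cells had a UMI of Ace (64.2%), 225 of Treml4 (72.6%), 221 of Ear2 (71.3%) and 253 of Adgre4 (81.6%). In the library labelled cko the shares were 68.1%, 76.5%, 70.4% and 78.8% of 307 cells. All 4 genes were seen in 85 and 88 cells, 3 of them in 122 and 133, 2 in 89 and 65, and a single gene in 14 and 21. The median marker sum was 7 UMIs in both libraries, and the highest was 30 and 36, with up to 24 and 34 UMIs of Ear2 in one cell.

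The limits of the gate had cells close to them on either side. A marker sum of exactly 3 was found in 104 and 93 cells that met the other limits, and a sum of exactly 4 in 61 and 51. C1q was not a close limit: 2 and 4 members had a C1q sum of 8 or 9, and 3 and 7 cells were left out at 10 or 11. The Cd3 limit left out 5 cells in each library.

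The label was checked against 2 comparison gates of the same libraries, under the same Cd3 and mitochondrial limits. Classical monocytes had at least 4 UMIs of Ly6c2, a C1q sum under 10 and a marker sum of at most 1 (375 and 351 cells), and C1q macrophages had a C1q sum of at least 10, with at most 1 UMI of Ly6c2 and a marker sum of at most 1 (291 and 327 cells). Levels are given as CPM, a gene's counts scaled to all counts of the gate, and are not compared between genes. Ace stood at 213 CPM in the library labelled wt and 229 in that labelled cko, against 3.38 and 3.02 in classical monocytes. Ear2 stood at 426 and 431 CPM against 4.92 and 8.72, Adgre4 at 281 and 272 against 13.2 and 11.4, and Treml4 at 204 and 242 against 13.5 and 14.1. Each comparison gate was limited to a marker sum of 1, so these gaps follow from the rule. T cells of the same libraries were a gate added after the data were seen. Its 146 and 184 cells had Cd3 sums of at least 4, C1q sums under 10 and marker sums of at most 1. It served as a measure of free RNA for genes outside the rule that T cells do not express themselves. The 4 genes read between 0 and 5.17 CPM there, again under a limit on their sum. Reads of Ear2 can come from near-identical members of its family, and 4 listed members (Ear3, Ear4, Ear7 and Ear12) were not analysed here. The 6 others summed to 10.1 and 4.57 CPM, nearly all from Ear1 at 9.66 and 4.57.

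Defining markers of lymphoid cells, granulocytes other than neutrophils, platelets and tumor cells summed to at most 31.2 CPM a list, while the neutrophil and macrophage lists did not. Of 8 eosinophil markers, 5 had no UMI in the gated cells (Prg2, Epx, Il5ra, Ear6 and Alox15), Siglecf had 1 and 2, and Ccr3 2 and 5. Ear1 had 22 and 10 UMIs, and the list summed to 11.0 and 7.77 CPM against 0.615 and 0 in classical monocytes. Siglech of plasmacytoid dendritic cells had 0 UMIs. The summed level was 6.59 and 6.86 CPM for 5 T cell genes outside the rule, 31.2 and 29.7 for 7 NK cell genes, 9.66 and 7.31 for 5 B cell genes, 1.32 and 1.37 for 6 basophil and mast cell genes, 0.878 and 0.457 for 5 platelet genes, and 2.63 and 3.66 for 6 tumor and epithelial genes. Of 11 dendritic cell genes, summing to 264 and 268 CPM, Irf8, which monocytes also express, held 240 and 248. The neutrophil list, 10 genes that include S100a8 of classical monocytes, summed to 1684 and 1784 CPM against 2895 and 7950 in the classical gate, and S100a8 alone held 969 and 1100 in the gated cells. The macrophage list, which leaves out C1q, summed over 13 genes to 1697 and 2631 CPM, against 10991 and 12282 in C1q macrophages. Csf1r, the receptor for the growth factor of monocytes, was seen in 93.9% and 98.4% of the cells.

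The rest of the renin-angiotensin system was nearly silent beside Ace. Of 11 other listed genes, 8 had no UMI in the gated cells, among them the angiotensinogen gene Agt, the renin gene Ren1 and the receptor genes Agtr1a, Agtr1b and Agtr2. Lnpep, a membrane aminopeptidase, stood at 9.66 and 7.31 CPM, and Anpep and Enpep at 3.07 CPM or less in each library.

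A program of 18 further nonclassical genes was higher in the gated cells than in classical monocytes as a group. All 18 had log2 ratios above 0 in both libraries, with medians of 1.61 in the library labelled wt and 1.53 in that labelled cko, beside medians of -0.05 and -0.00 over all 8335 genes compared. A gene was called when it was at least 2-fold apart in the same direction in both libraries and had at least 50 UMIs. By this rule 11 of the 18 were higher and 0 lower, where 96 of 8335 genes (1.15%) were called higher and 212 (2.54%) lower. Against C1q macrophages 12 of the 18 were higher and 0 lower, with medians of 1.76 and 1.78, where 346 of 8739 genes (3.96%) were called higher and 673 (7.70%) lower. The list was drawn up with results of these cells known and supports nothing about the name of the class.

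**Figure D1:**
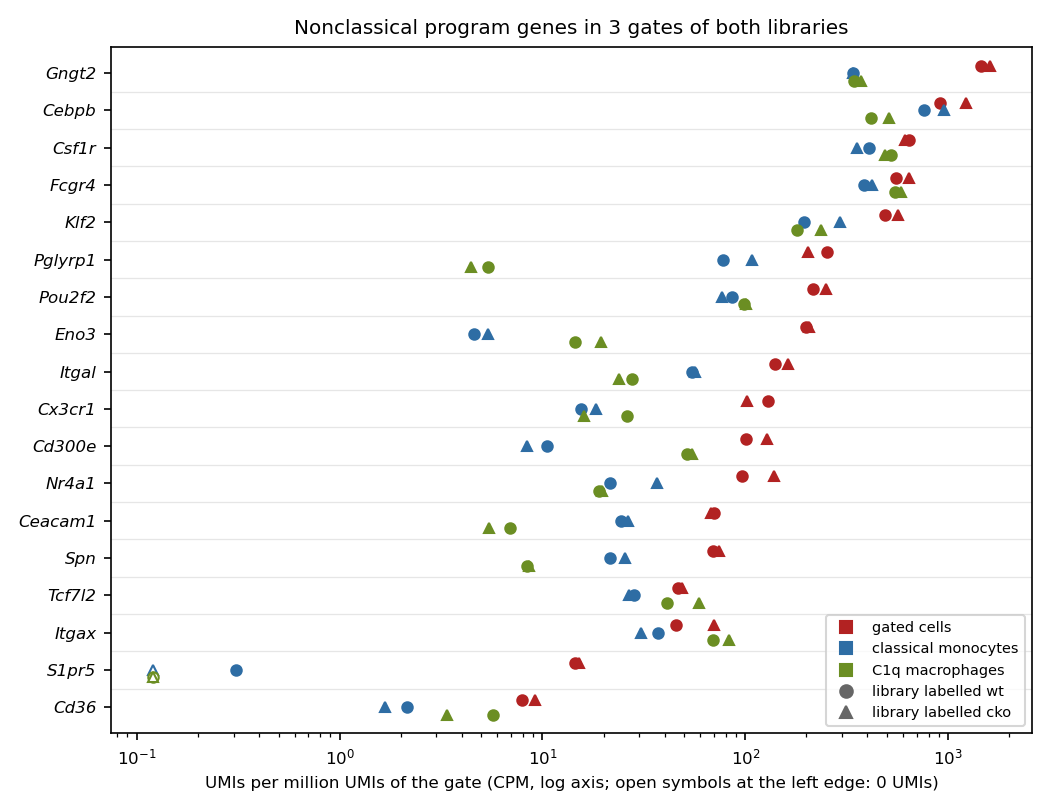
Levels of the 18 program genes in 3 gates. The x axis gives CPM on a log scale, each row is a gene, red points are gated cells, blue classical monocytes and green C1q macrophages, circles are the library labelled wt and triangles that labelled cko, and open symbols at the left edge had 0 UMIs. Within each library the red point lies right of the blue one for all 18 genes, and Eno3 shows a wide gap, at 198 and 205 CPM against 4.61 and 5.37.

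Some receptor and adhesion genes of the patrolling program were higher than in classical monocytes. Cx3cr1, the fractalkine receptor, stood at 129 CPM in the library labelled wt and 102 in that labelled cko, against 15.4 and 18.4 in classical monocytes. Its log2 ratios were 3.06 (2.63 to 3.53) and 2.47 (2.04 to 2.92), so the groups lay far apart in both libraries. Itgal, the alpha chain of LFA-1, stood at 140 and 162 CPM against 54.5 and 56.3. Spn, which encodes CD43, the surface marker of Ly6C-low monocytes, stood at 69.4 and 74.1 against 21.5 and 25.5. S1pr5, the sphingosine-phosphate receptor used to leave the bone marrow, had 33 UMIs in each library, against 1 and 0 in classical monocytes and 0 and 0 in C1q macrophages. Against a floor of 3 counts its level was at least 15.0-fold higher than that of classical monocytes in the library labelled cko, and at least 16.1-fold and 19.4-fold higher than in C1q macrophages. Of 16 adhesion and patrolling genes compared with classical monocytes, these 4 were called higher and 1 lower, beside 1.15% and 2.54% of all genes. The medians of the 16 were 0.36 and 0.53, with 5 and 4 genes below 0. The 4 genes also belong to the program of 18, so they are not a separate result. Itgb2, the partner chain of Itgal, stood at 512 and 582 CPM against 423 and 461 and was not called.

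Among transcription factors, Nr4a1, Pou2f2, Hes1 and Bcl6 stood past 2-fold above classical monocytes. Nr4a1 stood at 96.6 and 138 CPM, against 21.5 and 36.9 in classical monocytes and 18.9 and 19.7 in C1q macrophages. Its log2 ratios over classical monocytes were 2.17 (1.77 to 2.57) and 1.90 (1.58 to 2.23). These 4 of 16 factors compared were called higher and none lower, where 1.15% and 2.54% of all genes were. Pou2f2, an octamer-binding factor, stood at 216 and 249 CPM against 86.4 and 76.8, and Hes1, a target of Notch signaling, at 83.4 and 89.6 against 15.1 and 20.1. Bcl6, a repressor, rested on 27 and 23 UMIs. Klf2 was above classical monocytes in both libraries but past 2-fold only in the library labelled wt, at 488 and 563 CPM against 195 and 293. Cebpb stood at 911 and 1230 CPM, close to the 760 and 953 of classical monocytes. Spi1, which encodes PU.1, stood at 840 and 856 against 690 and 670. The relatives of Nr4a1 were near 0, with 1.32 and 3.20 CPM for Nr4a2 and 0 and 0.457 for Nr4a3.

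The 12 genes that the naming rule placed highest over classical monocytes included several outside the program. The muscle enolase gene Eno3 led with log2 ratios of 5.42 (4.69 to 6.27) and 5.26 (4.54 to 6.08). T cells of the same libraries held 140 and 103 CPM of Eno3, against 4.61 and 5.37 in classical monocytes. Of 2 other program genes they held more than the gated cells, Pglyrp1 at 413 and 422 CPM and Spn at 105 and 138. C1q macrophages held 5.39 and 4.42 CPM of Pglyrp1 and 8.39 and 8.57 of Spn. T cells were therefore no measure of free RNA for these genes. Lilra5, an activating immunoglobulin-like receptor, followed with 120 and 91.9 CPM against 8.00 and 7.04. Cd300e, an activating receptor of monocytes, stood at 101 and 128 CPM against 10.5 and 8.38, but C1q macrophages held 51.8 and 54.3. Gngt2, a G-protein gamma subunit, was the most strongly counted with 3288 and 3521 UMIs, at 1444 and 1610 CPM against 341 and 338. Hpgd, the enzyme that inactivates prostaglandin E2, stood at 25.5 and 37.5 CPM against 3.38 and 2.35. Rbpms, Dusp16, Adrbk2, Hes1, Cx3cr1, S1pr5 and Slc12a2 completed the 12.

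After each cell had been thinned to 3000 UMIs, to set depth aside, Cx3cr1 was seen in 26.5% (21.6 to 31.7%) of the gated cells of the library labelled wt and in 24.1% (19.4 to 29.3%) of those labelled cko. The shares were 3.20% and 4.56% in classical monocytes and 4.81% and 3.06% in C1q macrophages. Eno3 was seen in 32.9% and 34.2% of the gated cells against 1.33% and 1.99% of classical monocytes. Nr4a1 was seen in 22.9% and 28.7% against 4.80% and 9.40%. Without thinning, Cx3cr1 was seen in 43.5% and 39.4% of the gated cells, and Eno3 in 46.8% and 49.8%. T cells, with median depths of 5804 and 7000 UMIs against 7028 and 6550, had a UMI of Eno3 in 30.1% and 32.6% and of Cx3cr1 in at most 23.9%, in the library labelled cko.

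Fc receptor genes differed from classical monocytes by less than 2-fold in at least 1 library, and none of 6 was called, a count near the background of 1.15% and 2.54% of all genes. Fcgr4, which encodes the Fc receptor of the nonclassical class and whose promoter is printed above, stood at 551 and 640 CPM, against 385 and 419 in classical monocytes and 549 and 583 in C1q macrophages. Fcgr1, the high-affinity receptor, stood at 317 and 325 CPM against 610 and 532 in classical monocytes.

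The classical program was lower but not absent. Of 11 classical genes, 5 were called lower than in classical monocytes and none higher, with medians of -0.94 and -0.95, where 2.54% of all genes were called lower and the medians over all genes were -0.05 and -0.00. Fn1, the fibronectin gene, stood at 36.0 and 49.4 CPM against 109 and 144, and F13a1, the coagulation factor XIII chain, at 72.9 and 95.5 against 284 and 403. Mmp8, a collagenase, stood at 82.1 and 79.5 against 181 and 280. Ly6c2, also among them, defined the comparison gate. Ccr2, the receptor that draws classical monocytes out of the marrow, stood at 591 and 597 CPM against 850 and 976 and was not called. Hp, Mgst1, Gpr141, Vcan and Chil3 were not called either. Set against C1q macrophages, 8 of the 11 were called higher in the gated cells and 1 lower, beside 3.96% and 7.70% of all genes. Among the 8 was Ly6c2, which the macrophage gate limited to 1 UMI. The others included Hp at 622 and 771 CPM against 45.8 and 60.0, Chil3 at 1453 and 2929 against 125 and 265, and Mgst1 at 261 and 241 against 22.5 and 19.2. Plac8, the gene of a small cysteine-rich protein of myeloid cells, stood at 10700 and 9919 CPM against 7269 and 6797 in classical monocytes and 974 and 856 in C1q macrophages. Ly6i, a neighbour and relative of Ly6c2, went the other way, at 533 and 391 CPM against 245 and 162 in classical monocytes. Reads of Ly6c1, Ly6c2 and other Ly6 paralogs can be exchanged.

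The 12 genes placed lowest against classical monocytes included known genes of plasmacytoid dendritic, NK and B cells. Siglech and Klk1 had 0 UMIs in the gated cells and were at least 36.7-fold and 24.8-fold lower in the library labelled wt. Ly6d, Cox6a2, Mzb1, Atp1b1, Ccr9, Dntt and D13Ertd608e followed, with genes of NK and B cells (Ncr1, Gzmc, Fcrla). At least 2 UMIs of Siglech were found in 14 of 375 and 14 of 351 cells of the classical gate, at least 2 of Ncr1 in 7 and 3, of Cd79a in 2 and 0, and of the granulocyte gene Ngp in 3 and 6. Under a classical gate that required Csf1r and left out cells with these genes, chosen after the data were seen (328 and 299 cells), the count of genes called lower was 121 in place of 212, and 112 of these were shared. There, 10 of the 12 named genes had at most 3 UMIs in both gates of at least 1 library, so that no fold could be given. Values of the other direction were found for Ly6d (log2 ratio 0.76) and Gzmc (1.05) in the library labelled wt and for Ncr1 (0.76 and 0.67) in both. That gate was defined by the absence of Siglech and Ncr1, so their values there follow from it. The count called higher was 112 in place of 96, with 88 shared.

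Within the gated cells Eno3, Spn and Cd300e were highest where Ly6c2 was absent. In the library labelled wt, 111 cells had no UMI of Ly6c2 (35.8%), 121 had 1 to 3 and 78 had 4 or more. In the library labelled cko the counts were 136 (44.3%), 91 and 80. Eno3 stood at 284, 181 and 127 CPM over these classes in the library labelled wt and at 303, 170 and 119 in that labelled cko. Spn went from 84.5 to 77.8 and 41.2 CPM, and from 103 to 69.4 and 43.4. Cd300e stood at 188, 65.5 and 54.9 CPM and at 207, 64.6 and 88.3. Cx3cr1 was level over the first 2 classes in the library labelled wt, at 151, 154 and 68.7 CPM, and stepped down in that labelled cko, at 137, 96.9 and 64.5.

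Fn1 had the reverse order over the same classes, at 9.70, 33.3 and 68.7 CPM in the library labelled wt and at 15.2, 45.2 and 93.9 in that labelled cko. The interferon-induced gene Isg15 went with it, at 133, 194 and 566 CPM and at 117, 321 and 612. H2-Ab1, an MHC class II chain, was highest without Ly6c2, at 5962, 4911 and 4373 CPM and at 4898, 3429 and 2942. The classes differed in depth, with median UMIs of 6106, 7127 and 7904 and of 6047, 6513 and 8280, and the part of depth was not tested.

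The gate cut across a continuous range of marker sums. Over all Csf1r-positive cells that met the C1q, Cd3 and mitochondrial limits, Eno3 stood at 8.46 CPM at a marker sum of 0, 35.9 at 3, 60.9 at 4 to 5, 127 at 6 to 9 and 455 at 10 or more in the library labelled wt. The same classes stood at 11.3, 19.3, 84.8, 153 and 458 CPM in that labelled cko. Cx3cr1 stood at 16.9 CPM at a sum of 0 and 195 at 10 or more, and at 18.7 and 179 in the library labelled cko. S1pr5 stood at 45.7 and 46.9 CPM in the top class, against 7.35 and 5.78 at sums of 6 to 9. The number of marker genes seen comes from the same UMIs as the sum, so its order is no separate result. Eno3 stood at 0 and 65.3 CPM in the 14 and 21 cells with a single marker gene. It stood at 377 and 334 in the 85 and 88 cells with all 4. Pglyrp1, a peptidoglycan-binding protein, stood at 50.3 and 432 CPM at the ends of the range in the library labelled wt, and at 69.2 and 380 in that labelled cko.

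Ccr2 and MHC class II lay lower at the upper end of that range. Ccr2 stood at 758 CPM at a sum of 0 and 444 at 10 or more in the library labelled wt, and at 867 and 373 in that labelled cko. H2-Ab1 stood at 7402 and 3614 CPM, and at 6682 and 2869. Mki67, the proliferation antigen, had no UMI in the 82 and 87 cells with sums of 10 or more. The classes held 82 to 484 cells in the library labelled wt and 87 to 486 in that labelled cko, with median UMIs from 8110 at 0 to 6361 at the top and from 7631 to 5870.

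**Figure D2:**
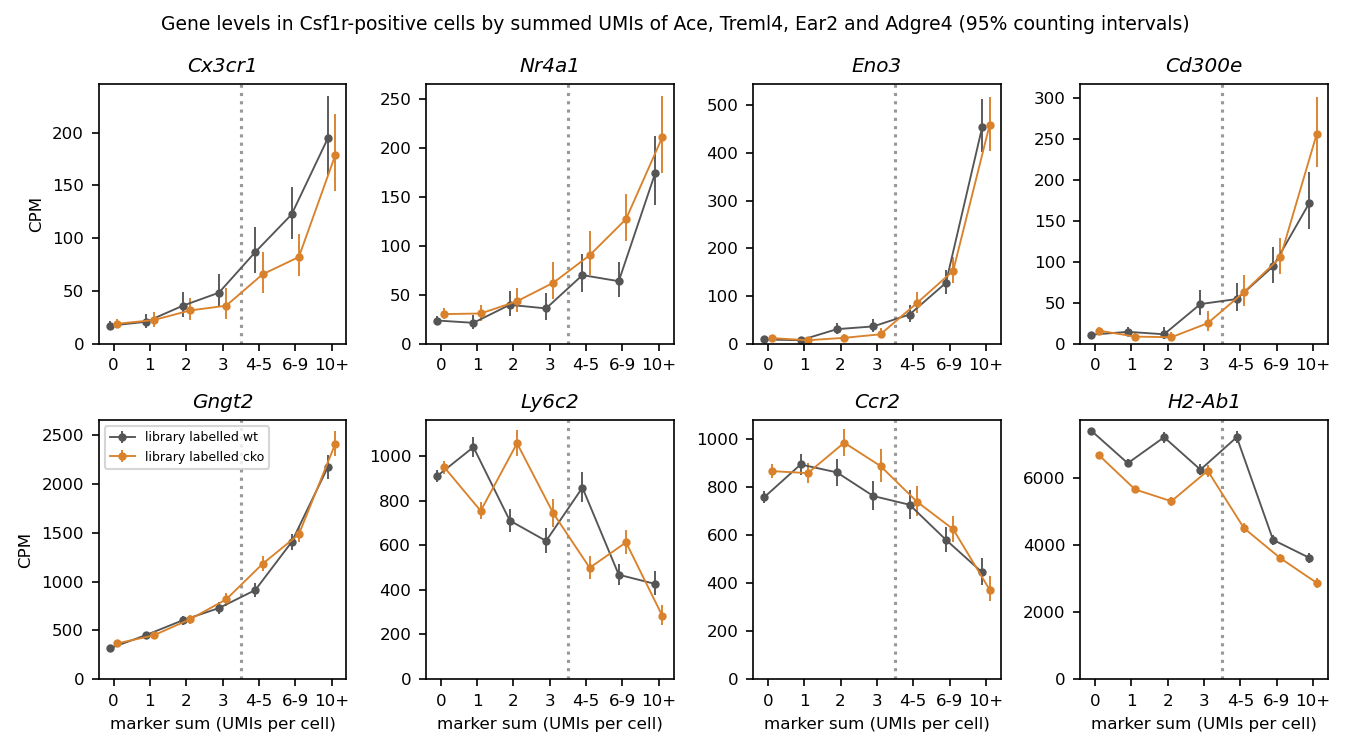
Levels of 8 genes (CPM, y axes from 0) in Csf1r-positive cells grouped by the summed UMIs of Ace, Treml4, Ear2 and Adgre4 (x axis), for the library labelled wt in grey and that labelled cko in orange, with 95% counting intervals. The dotted line marks the gate at 4 UMIs, Eno3 reaches 455 and 458 CPM in the highest class, and Ccr2 ends at 444 and 373 CPM.

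Cells that carried the marker genes with high C1q were left out by the rule and were more frequent in the library labelled cko. A marker sum of at least 4 with a C1q sum of at least 10 was found in 170 and 305 cells of the libraries labelled wt and cko, and the ratio of shares was 1.62 (1.34 to 1.97). The 165 and 300 of these that met the Cd3 limit were deep, with median UMIs of 16140 and 14018, where a fixed sum of 4 is reached more easily. They shared Treml4 with the gated cells, at 199 and 254 CPM, but held less Ace (24.4 and 44.9), Ear2 (66.5 and 93.3) and Adgre4 (117 and 131). Cd300e was at 212 and 329 CPM, above the 101 and 128 of the gated cells, while Cx3cr1 was at 54.5 and 24.1, Eno3 at 42.5 and 72.0 and S1pr5 at 0.354 and 0.645. Mki67 stood at 28.7 and 57.2 CPM, against 7.03 and 5.03 in the gated cells. The part of depth in their abundance was not tested.

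Macrophage genes were lower in the gated cells than in C1q macrophages. Of 13 macrophage genes compared with C1q macrophages, C1q left out, all 13 had log2 ratios below 0 in both libraries and 10 were called lower, with medians of -2.54 and -2.39, where 7.70% of all genes were called lower and the medians over all genes were -0.08 and -0.09. Pf4, a chemokine of resident-type macrophages, stood at 20.2 and 12.8 CPM against 1921 and 1073, Mrc1, the mannose receptor, at 11.4 and 11.0 against 335 and 221, and Vcam1 at 4.83 and 14.6 against 277 and 232. Cd63, a lysosomal tetraspanin, stood at 24.6 and 37.9 CPM against 853 and 774. Of 12 lysosome and granule genes 5 were called lower and 1 higher than in C1q macrophages, beside 7.70% and 3.96% of all genes, though the list, in which Lyz2 weighs most, summed to 35128 and 24895 CPM against 37049 and 25416. The cathepsin gene Ctsl was also lower than in classical monocytes, at 179 and 183 CPM against 452 and 460. In the reverse direction, Pglyrp1 stood at 254 and 203 CPM against 5.39 and 4.42 in C1q macrophages, and Serpinb10, a serpin of myeloid cells, at 112 and 110 against 3.00 and 2.08. Cst3, the cathepsin inhibitor cystatin C, was called higher than in C1q macrophages, at 4177 and 4191 CPM against 2038 and 1896.

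Some chemokine and receptor genes were lower than in the comparison gates. Of 18 chemokine and receptor genes compared with classical monocytes, Ccl2, Ccl7, Ccl9, Ccl12 and Ccr1 were called lower and Cx3cr1 higher, beside 2.54% and 1.15% of all genes. Against C1q macrophages 7 of 19 were called lower and Cx3cr1 higher, beside 7.70% and 3.96%. Ccl2 stood at 51.8 and 49.4 CPM, against 160 and 180 in classical monocytes and 572 and 580 in C1q macrophages. Ccl7 stood at 15.4 and 10.1 CPM against 115 and 64.0, and 798 and 564. Thbs1, which encodes the angiogenesis inhibitor thrombospondin-1, stood at 96.6 and 122 CPM against 329 and 358 in classical monocytes, and Il15 was called lower too. Il1b was well expressed, at 1039 and 1100 CPM against 1194 and 930, while Il6, Il10 and Vegfa each had at most 1 UMI in each library.

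Survival genes of the BCL2A1 family were higher than in classical monocytes. Of 12 survival genes, Bcl2a1a, Bcl2a1b and Bcl2a1d were called higher and none lower, beside 1.15% and 2.54% of all genes. Bcl2a1b stood at 297 and 276 CPM against 96.9 and 75.4, but at 312 and 232 in C1q macrophages. Near-identical sequence lets reads pass between these paralogs, so the 3 are not separate results. Among 11 lipid genes the fatty acid-binding protein gene Fabp4 and the nuclear receptor genes Pparg and Nr1h3 were called higher than in classical monocytes and none lower, beside the same shares. Pparg stood at 23.7 and 33.4 CPM against 6.77 and 2.68, and Nr1h3, the liver X receptor, at 42.6 and 56.7 against 18.5 and 16.4. In C1q macrophages Pparg stood at 30.0 and 44.7 CPM and Nr1h3 at 112 and 91.2.

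The gated cells held few cell-cycle transcripts. Of 15 proliferation genes, 7 were called lower than in classical monocytes, with medians of -1.59 and -1.09, and 12 lower than in C1q macrophages, with medians of -1.88 and -2.05. Over all genes 2.54% and 7.70% were called lower, with medians of -0.05 and -0.00 and of -0.08 and -0.09. Their summed level was 187 and 178 CPM, against 365 and 404 and against 480 and 733. Birc5, the survivin gene, stood at 8.34 and 15.1 CPM, against 25.2 and 42.3 in classical monocytes and 58.1 and 98.5 in C1q macrophages.

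MHC genes had medians near 0 against classical monocytes, 0.09 and 0.24 for class II and -0.12 and -0.00 for class I. None of 9 class II and none of 11 class I genes was called, a count near the background of 1.15% higher and 2.54% lower over all genes. H2-Ab1 stood at 5089 and 3844 CPM, against 4781 and 3251 in classical monocytes and 8908 and 9468 in C1q macrophages. None of 20 type I interferon response genes was called against classical monocytes. Their log2 ratios were below 0 for 19 of 20 in each library, with medians of -0.96 and -0.41 beside -0.05 and -0.00 over all genes, and against C1q macrophages the medians were 0.24 and 0.59. Irf7, a factor that amplifies the response, stood at 350 and 374 CPM against 552 and 499 in classical monocytes.

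Between the genotypes, the gene that carries Cre was examined first, as a check of the titles. Lyz2 stood at 22364 CPM in the library labelled wt and 11056 in that labelled cko, a log2 ratio of -1.02 (-1.04 to -0.99). The ratio was -0.86 in classical monocytes and -1.17 in C1q macrophages, and free Lyz2 RNA in T cells moved with it, from 1246 to 493 CPM. Lyz1, the neighbouring lysozyme gene, stood at 43.9 and 178 CPM, a log2 ratio of 2.02 (1.70 to 2.35). In the library labelled cko 1 cell held 21.8% of its UMIs. The higher level was not matched by a larger share of gated cells with Lyz1. After thinning the share was 15.8% (11.9 to 20.4%) in the library labelled wt and 12.1% (8.63 to 16.2%) in that labelled cko. Without thinning it was 27.1% and 21.5%. Reads of the 2 lysozyme genes can be exchanged. miR-21 itself was not analysed here.

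The gated cells of the genotypes differed past 2-fold in few genes. Of 6299 genes that had 50 or more UMIs in sum, 35 (0.556%) were at least 2-fold higher in the library labelled cko and 14 (0.222%) at least 2-fold lower, around a median log2 ratio of 0.04 (5th to 95th percentile -0.42 to 0.52). With TMM scaling the counts were 32 and 20. With the gate at a marker sum of at least 3, 19 of the 35 and 4 of the 14 were called again. At a sum of at least 6, 18 and 4 were. The gate genes are set by the same limit in both libraries and are not compared between them. None of the 17 program genes with enough UMIs was past 2-fold, a count near these shares. The program's median log2 ratio was 0.16, with 13 genes above 0, beside 3655 of the 6299. Nr4a1 was higher in the library labelled cko by 0.51 (0.25 to 0.77) on the log2 scale. It had ratios of 0.78 (0.33 to 1.23) in classical monocytes and 0.07 (-0.44 to 0.57) in C1q macrophages. In the gated cells Itgax, which encodes CD11c, was higher by 0.62 (0.26 to 1.00). Cx3cr1 had a log2 ratio of -0.34 (-0.59 to -0.08) there and Pglyrp1 of -0.32 (-0.50 to -0.14).

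Of the known miR-21 targets, 8 of 17 listed genes had enough UMIs and none was past 2-fold. Ratios were above 0 for 5, a count near the 3655 of 6299 over all genes, and below 0 for 3. The median was 0.23 beside 0.04. The whole interval lay above 0 for 2 genes, Rhob and Tgfbi, and below 0 for none. Those named here were among the 5 above 0. Rhob, a small GTPase, stood at 25.0 and 42.1 CPM, a log2 ratio of 0.75 (0.26 to 1.25). Tgfbi stood at 1558 and 1934 CPM (0.31, 0.25 to 0.38) and the translation inhibitor Pdcd4 at 28.1 and 38.4 (0.45, -0.04 to 0.94).

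The naming rule placed Apoe first among the genes higher in the library labelled cko. Apoe, the apolipoprotein of macrophages, stood at 309 CPM in the library labelled wt and 1113 in that labelled cko, a log2 ratio of 1.85 (1.73 to 1.97). The ratio was 0.68 in classical monocytes and 0.93 in C1q macrophages. After thinning, Apoe was seen in 28.4% (23.4 to 33.8%) and 66.4% (60.9 to 71.7%) of the gated cells. T cells held 88.0 and 292 CPM, so free RNA moved the same way. Without thinning, 44.2% and 81.4% of the gated cells had an Apoe UMI, against 32.2% and 55.4% of T cells at median depths of 5804 and 7000 UMIs. The part of free RNA in the difference was not tested. Over marker sums of 4 to 5, 6 to 9 and 10 or more Apoe stood at 429, 233 and 244 CPM in the library labelled wt and at 1106, 1148 and 1111 in that labelled cko.

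Fabp4 and Mmp12 rested on few UMIs. Fabp4 stood at 9.22 and 30.2 CPM (1.71, 0.98 to 2.49), with ratios of 1.49 in classical monocytes and 1.97 in C1q macrophages. Mmp12, the macrophage elastase, stood at 7.46 and 34.3 CPM, but 1 cell held 74.7% of its UMIs in the library labelled cko, and without the top cell of each library the log2 ratio went from 2.20 to 0.72. Chil3 stood at 1453 and 2929 CPM (1.01, 0.95 to 1.07), as in classical monocytes at 1936 and 4126. Ddit4, a stress-induced inhibitor of mTOR, stood at 50.5 and 129 CPM (1.35, 1.03 to 1.68).

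Tgfb1 was among the genes past 2-fold in the reverse direction. It encodes transforming growth factor beta 1 and stood at 470 CPM in the library labelled wt and 173 in that labelled cko, a log2 ratio of -1.44 (-1.62 to -1.27). A gap of this direction was present in classical monocytes at 419 and 139 CPM, in C1q macrophages at 467 and 149, and in T cells at 164 and 60.6. Trim12a, of a cluster of antiviral TRIM genes on chromosome 7, had 62 and 5 UMIs, at 27.2 and 2.29 CPM (-3.57, -5.25 to -2.27), again lower in all 3 gates and in T cells (31.0 and 1.96 CPM). Reads of Trim12a and Trim30d can be exchanged with paralogs of that cluster. Orai2, Trim30d and Epb41l4aos were lower on 13 to 22 UMIs in the library labelled cko, and Ly6a had a log2 ratio of -0.65 (-0.78 to -0.51). Hilpda owed its ratio of -1.02 to 1 cell with 57.6% of the UMIs in the library labelled wt, without which it was 0.06.

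**Figure D3:**
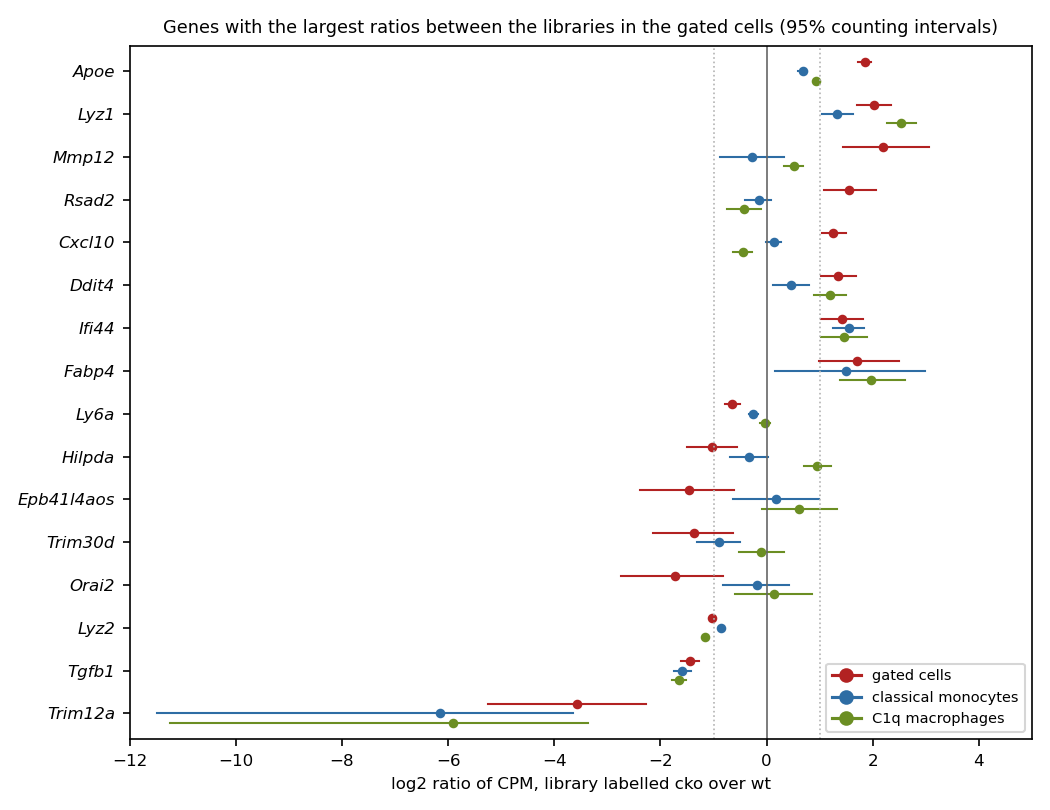
Log2 ratios of CPM, library labelled cko over wt (x axis), for the 16 genes named by the rule (rows), in gated cells (red), classical monocytes (blue) and C1q macrophages (green), with 95% counting intervals and dotted lines at 2-fold. Tgfb1, Lyz2 and Trim12a lie left of 0 in all 3 gates, while Rsad2 lies at 1.56 in gated cells and at -0.15 and -0.42 in the others.

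None of 8 MHC class II genes with enough UMIs was past 2-fold between the libraries. All 8 had ratios below 0, 6 of them with the whole interval, with a median of -0.40 beside 0.04 over all genes. H2-Ab1 stood at 5089 and 3844 CPM (-0.40, -0.45 to -0.36), H2-Aa at 4060 and 2840 (-0.52, -0.56 to -0.47) and the invariant chain gene Cd74 at 13371 and 10018 (-0.42, -0.44 to -0.39). Classical monocytes had ratios of -0.56 for H2-Ab1 and -0.47 for Cd74, and C1q macrophages of 0.09 and 0.03. T cells held 925 and 438 CPM of H2-Ab1 and 1768 and 742 of Cd74, and the part of free RNA was not tested. MHC class I genes had a median ratio of -0.00, and B2m stood at 7622 and 7611 CPM.

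Of the 20 interferon response genes, Rsad2, Ifi44 and Cxcl10 were past 2-fold higher in the library labelled cko, where 0.556% of all genes were. Ratios above 0 were found for 15 of the 20, with a median of 0.19, beside 3655 of 6299 genes above 0. Rsad2, the antiviral viperin, stood at 22.0 and 64.9 CPM (1.56, 1.09 to 2.06), and Cxcl10, a T cell-attracting chemokine, at 99.2 and 238 (1.26, 1.04 to 1.49). Ifi44 stood at 34.2 and 91.4 CPM (1.42, 1.03 to 1.81) and had ratios of 1.55 and 1.46 in classical monocytes and C1q macrophages. In those gates Cxcl10 had ratios of 0.13 (-0.02 to 0.27) and -0.45 (-0.63 to -0.27), and Rsad2 of -0.15 and -0.42. After thinning Cxcl10 was seen in 7.74% and 10.7% of the gated cells and Ifi44 in 7.10% and 14.3%. Rsad2 was seen in 3.55% (1.78 to 6.26%) and 5.86% (3.51 to 9.11%), and without thinning in 8.71% and 9.12%. For Cxcl10, 1 cell held 22.1% of its UMIs in the library labelled cko, and for Rsad2 1 cell held 17.6%. The ratio of Rsad2 was 0.52 when the gate was widened to a marker sum of 3.

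**Figure D4:**
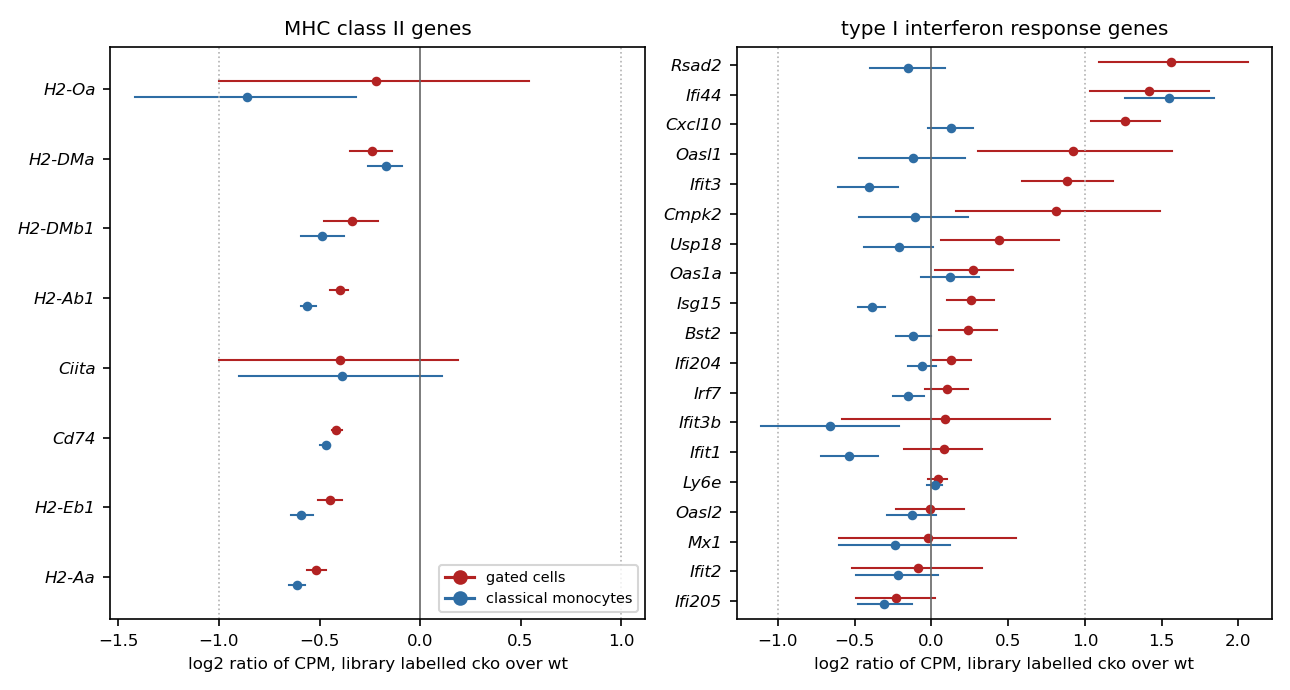
Log2 ratios of CPM, library labelled cko over wt (x axes), for MHC class II genes (left) and 19 type I interferon response genes (right) in gated cells (red) and classical monocytes (blue), with 95% counting intervals and dotted lines at 2-fold. The red points of the 8 class II genes lie left of 0 with a median of -0.40, and 15 red points on the right lie above 0.

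Immediate-early and heat-shock genes, which respond to tissue digestion, had ratios above 0 in 12 of 14 cases, with a median of 0.26. Over all genes 3655 of 6299 lay above 0. The list summed to 2294 and 2812 CPM in gated cells, 2492 and 3120 in classical monocytes, and 2185 and 2759 in C1q macrophages. Fos stood at 342 and 444 CPM (0.38, 0.24 to 0.52), Jun at 212 and 282 (0.41, 0.23 to 0.58) and Hspa1a at 245 and 338 (0.46, 0.30 to 0.62). Nr4a1 is itself an immediate-early gene, and the part of handling in its ratio was not tested. The classical monocyte list had 8 of 11 ratios above 0, with a median of 0.25.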

How the data were processed

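CD45+ cells of LLC tumors were profiled by droplet single-cell RNA-Seq (Chromium 3′ chemistry, version 2), with 1 library per genotype from 3 pooled mice. The authors deposited raw UMI counts per gene and cell for 2449 and 2718 called cells and 27998 genes, of which 56 symbols were shared by several rows. The submitters' processing notes name Cell Ranger, Seurat and mm10 without versions. The shallowest cell had 3184 UMIs, so the files do not hold cells with little RNA.

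Members, comparison gates and all gene lists were chosen with earlier results of these data known. UMIs were summed per gate and library and scaled to CPM, and log2 ratios were given with exact conditional binomial intervals, shares with Clopper-Pearson intervals, both at 95% and for counting error only. With 1 library per group no test between genotypes could be made, and differences between gates rest on cells of the same 2 libraries. A gene was called past 2-fold with at least 50 UMIs over the groups compared, in both libraries for comparisons of gates, and a sum of 0 was set to a floor of 3 counts per gate and library. Named genes were those with the highest lower and lowest upper bounds (8 and 8 between genotypes, 12 and 12 against classical monocytes, 8 and 8 against C1q macrophages), gate, mitochondrial and ribosomal protein genes left out, and the genes of 31 lists. A few listed genes are counted in their lists but not reported here. Shares of cells with a UMI were taken after thinning each cell to 3000 UMIs, and every cell was deep enough. Scrublet's automatic threshold called 2 and 5 cells and was not used. Doublets were kept, and removing the 48 and 58 highest-scoring cells (1.96% and 2.16%), 3 and 2 of them gated, was an alternative. The alternatives also covered the gate, the UMI minimum, TMM scaling and the top cell of each gene. Promoters came from the RefSeq table of GRCm38.p6. The calculations were checked on simulated counts and used Python 3.11.15, numpy 2.4.6, scipy 1.17.1, pandas 2.3.3, scanpy 1.11.5, matplotlib 3.10.9, R 4.3.3 and edgeR 4.0.16 (TMM factors only). Reads can be exchanged between near-identical paralogs, so values of the Ear, Ly6, Bcl2a1, Trim12 and lysozyme families are uncertain.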

Additional observations from a re-analysis of the deposited data

Results flagged for a closer look

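For 10 of 196 listed or named genes (5.10%), beside 32 of all 6108 genes (0.524%) with enough UMIs in both gates, the log2 ratio, library labelled cko over wt, had an interval above 0 in the gated cells and below 0 in classical monocytes, or the reverse. The difference between the gates was not tested, since each gate had 1 library per genotype. Pglyrp1, the peptidoglycan-binding protein of the nonclassical program, had a ratio of -0.32 in gated cells and 0.49 in classical monocytes. The interferon-induced genes Isg15 and Ifit3 had 0.26 and 0.88 in gated cells and -0.39 and -0.41 in classical monocytes. The survival gene Bcl2 had 0.72 and -0.91, and G0s2, an inhibitor of lipolysis that is also on the neutrophil list, -0.88 and 1.54. Granulocyte genes moved with G0s2 in the classical gate, from 11 to 394 UMIs for Ngp, 0 to 88 for Camp, 1 to 55 for Ltf and 633 to 1795 for Retnlg in the libraries labelled wt and cko, and their part in its ratio was not tested. Of secreted factors, Ccl5 had 0.66 and -0.97 and Il1b 0.08 and -0.36. T cells held 254 and 178 CPM of Bcl2 and 2212 and 1661 of Ccl5. In the classical gate T cell genes summed to 37.2 and 23.8 CPM, B cell genes to 53.5 and 11.1 and NK cell genes to 155 and 183. The part of such cells in the ratios of Bcl2 and Ccl5 was not tested. Axl, a receptor for apoptotic cells, had 1.40 and -0.70, the cholesterol exporter gene Abcg1 0.84 and -0.52, and the lysosomal tetraspanin gene Cd63 0.63 and -0.40.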

How the results depend on the processing

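The ratio of the share of gated cells, 0.895, lay between 0.874 and 0.907 under 6 other gates and with doublets removed. The UMI minimum moved the counts of genes past 2-fold most. Between genotypes they were 135 higher and 85 lower at 20 UMIs and 769 and 422 without a minimum, in place of 35 and 14. Against classical monocytes 321 were lower at 20 UMIs, and 211 higher and 392 lower without a minimum, in place of 96 and 212. Under the other alternatives the genotype counts were 29 to 42 higher (18 to 35 shared) and 10 to 20 lower (4 to 14 shared). Against C1q macrophages they were 297 to 486 higher and 594 to 952 lower over all alternatives. Of 1318 values of named genes that were past 2-fold and recomputed under an alternative, 1292 were still past it and 26 were not. Shares of cells depended on depth. Of 14 recomputed, 10 moved out of their interval with thinning to 2000 UMIs and 14 without thinning. In the library labelled wt Cx3cr1 was seen in 20.6% of gated cells at 2000 UMIs, in place of 26.5%. Without the top cell of each library Hilpda had a genotype ratio of 0.06. Under the classical gate added after seeing the data, 121 genes were lower, 19 values of 10 genes named as lower could not be given because both sums were at most 3 UMIs, and the log2 ratio was 0.76 for Ly6d and 1.05 for Gzmc in the library labelled wt and 0.76 and 0.67 for Ncr1. No paired analysis was possible because each group had 1 library. Genes under 50 UMIs were not compared, and counting intervals do not cover the spread between mice.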
